A study of Homo sapiens with 21 samples.

Results

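Matrix metalloproteases, their inhibitors and the urokinase system were followed as 10 genes, taken from each deposited table by gene symbol: MMP1, MMP2, MMP7, MMP9, MMP10, MMP14, TIMP1, TIMP2, PLAU and PLAUR. All 10 were present among the 17756 gene names of the chromosome 3 mRNA table, the 19854 of the ribosome footprint table and the 20036 of the chromosome 8 mRNA table. The 10 genes were chosen by symbol with earlier results of these data known, and which measured values they were selected on is not recorded, so counts over the genes are descriptions set beside the share of all genes called. The samples were cultures of a human lung epithelial cell line, in isogenic versions that differ in the copy number of a chromosome arm. The chromosome 3 set held mRNA of 3p loss, 3q gain and Chr3 WT cells and footprints (ribosome-protected fragments, RPF, that is, the pieces of mRNA that ribosomes cover) of 3p loss cells and of cells labelled 3p WT. A second set held mRNA of 8p loss and 8p WT cells. Each of the 7 groups had 3 biological replicates, 21 libraries in all. The labels do not say how the arms were altered or how many clones each genotype holds, and the chromosome 8 set has its own WT, so values were compared only within a table.

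Matrix metalloproteases are secreted or membrane-bound zinc enzymes that cut collagens, laminins and other extracellular matrix proteins, and tissue inhibitors of metalloproteases (TIMPs) bind and block their active site. Urokinase, the product of PLAU, turns plasminogen into plasmin at the cell surface, where it is held by its receptor, the product of PLAUR, and plasmin in turn cuts matrix and activates some metalloprotease precursors. In airway and lung epithelium these enzymes are known for their part in wound repair, tissue remodelling and tumour invasion, and several of their genes are induced through AP-1 and ETS transcription factors downstream of the ERK kinases.

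None of the 10 genes lies on chromosome 3 or 8. Copy number at their own positions was not measured. MMP1, MMP7 and MMP10 stand together on chromosome 11. MMP14 lies on chromosome 14, MMP2 on 16, MMP9 on 20, TIMP1 on X, TIMP2 on 17, PLAU on 10 and PLAUR on 19. TIMP1 overlaps SYN1, a synapsin gene that reached at most 0.711 TPM in any mRNA library, and TIMP2 overlaps CEP295NL. Because the 8p loss cells raised several of these genes together, the 250 bases before the annotated start are shown for MMP14, TIMP1, PLAU (the second of its annotated starts) and PLAUR, which rose there, and for MMP10, which was measured near the detection limit. They come from RefSeq (GRCh38.p14), which gave such a stretch for 6 of the 10 genes (none for MMP1, MMP2, MMP9 and TIMP2), and are written 5′ to 3′ on the gene's strand. Capitals mark the AP-1 motif TGANTCA, the TATA box TATAAA and the GC box GGGCGG, each searched on both strands.
MMP10, chr11:102780629-102780878, minus strand: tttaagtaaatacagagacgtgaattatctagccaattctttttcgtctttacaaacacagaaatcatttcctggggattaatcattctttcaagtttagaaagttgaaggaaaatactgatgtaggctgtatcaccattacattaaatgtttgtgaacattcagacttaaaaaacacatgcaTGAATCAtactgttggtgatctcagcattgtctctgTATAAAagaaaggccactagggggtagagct
MMP14, chr14:22836335-22836584, plus strand: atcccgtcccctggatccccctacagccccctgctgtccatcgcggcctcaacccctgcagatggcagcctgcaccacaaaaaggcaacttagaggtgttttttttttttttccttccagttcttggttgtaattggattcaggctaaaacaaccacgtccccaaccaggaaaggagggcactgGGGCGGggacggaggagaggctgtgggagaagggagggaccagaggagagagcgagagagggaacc
TIMP1, chrX:47582186-47582435, plus strand: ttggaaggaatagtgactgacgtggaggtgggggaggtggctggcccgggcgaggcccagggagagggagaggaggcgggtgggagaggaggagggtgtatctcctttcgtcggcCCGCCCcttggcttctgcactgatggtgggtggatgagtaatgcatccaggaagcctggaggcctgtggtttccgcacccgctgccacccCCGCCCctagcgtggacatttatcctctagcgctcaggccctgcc
PLAU, chr10:73910882-73911131, plus strand: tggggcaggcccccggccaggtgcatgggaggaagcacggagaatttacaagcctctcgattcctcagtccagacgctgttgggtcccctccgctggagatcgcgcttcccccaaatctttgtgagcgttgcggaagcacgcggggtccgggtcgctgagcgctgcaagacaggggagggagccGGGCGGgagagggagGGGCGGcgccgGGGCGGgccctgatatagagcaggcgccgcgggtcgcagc
PLAUR, chr19:43670170-43670419, minus strand: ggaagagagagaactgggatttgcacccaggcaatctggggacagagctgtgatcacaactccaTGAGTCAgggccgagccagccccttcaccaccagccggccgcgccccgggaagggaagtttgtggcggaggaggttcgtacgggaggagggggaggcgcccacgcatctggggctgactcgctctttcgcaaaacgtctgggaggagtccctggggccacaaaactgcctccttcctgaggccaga

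The MMP10 stretch carried an AP-1 motif 67 to 61 bases and a TATA box 31 to 26 bases before the start, and the MMP7 stretch, not printed, carried an AP-1 motif at the same distance with a TATA box 30 to 25 bases before the start. The PLAUR stretch carried an AP-1 motif 186 to 180 bases before the start. MMP14, TIMP1 and the printed PLAU stretch held GC boxes and neither of the other motifs within this window: MMP14 had 1, TIMP1 had 2 and this PLAU stretch had 3. The stretch before the first annotated PLAU start, not printed, held none of these 3 motifs. Among all 35116 promoter stretches of the same length, 6.57% held the AP-1 motif, 10.7% the TATA box and 42.6% the GC box. A match is a run of letters and was not shown to be bound.

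The median gene of 3p fell by 0.888 on the log2 scale in the 3p loss mRNA and by 0.969 in the 3p loss footprints, the median gene of 3q was 0.515 higher in 3q gain, and the median gene of 8p fell by 0.822 in 8p loss, so the labels and the data pointed the same way. Footprint libraries held 4596062 to 13534981 counts over gene names, while the mRNA tables hold normalised values, taken here as TPM (transcript levels scaled for length and library size), whose depth is unknown. All 8 epithelial markers, KRT5 and CDH1 among them, had means of at least 1 in every group. Of the 4 alveolar markers, NKX2-1, SFTPB and SFTPC had means under 1 in every group. AGER had a mean of at least 1 TPM in every mRNA group and was at 0 in both footprint groups. Footprint replicates 1 and 2 were much closer to each other than to replicate 3 in both genotypes (chi-square per degree of freedom 1.34 in WT and 1.38 in 3p loss, against 6.94 to 12.4 for pairs with replicate 3). Whether these 2 libraries came from separate cultures is not stated, so the footprint and efficiency p-values may rest on fewer than 3 independent samples a group, and the effect of summing the 2 to 1 library is given where it ended a call.

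In 8p loss cells MMP2, MMP9, MMP14, TIMP1 and the urokinase pair were called higher. So was MMP1, which was near 0 in WT, while MMP7 and MMP10 were too low to be tested. The interstitial collagenase MMP1, which cuts fibrillar collagen, went from near 0 to about 19.2 TPM (mean of 3 libraries, SD 0.883), and the gelatinases MMP2 and MMP9, the membrane-anchored MMP14, the inhibitor TIMP1, PLAU and PLAUR rose by 1.41-fold to 3.47-fold in mean TPM. TIMP2 did not pass the test. Of the 8 genes that averaged 1 TPM or more over the 6 libraries, MMP1 did so only through the 8p loss group and is left out of the following counts. Of the other 7 genes, 6 were called higher and none lower (limma, adjusted p under 0.05), where 69.1% of the 12302 genes tested were called, 33.1% higher and 36.0% lower. A call with a change of 2-fold or more on the log2(TPM + 1) scale was made for MMP2 and MMP14, 2 of these 7, and for 10.2% of all genes. The median log2 change was 0.89 over the 7 genes and -0.01 over all genes tested.

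**Figure D1:**
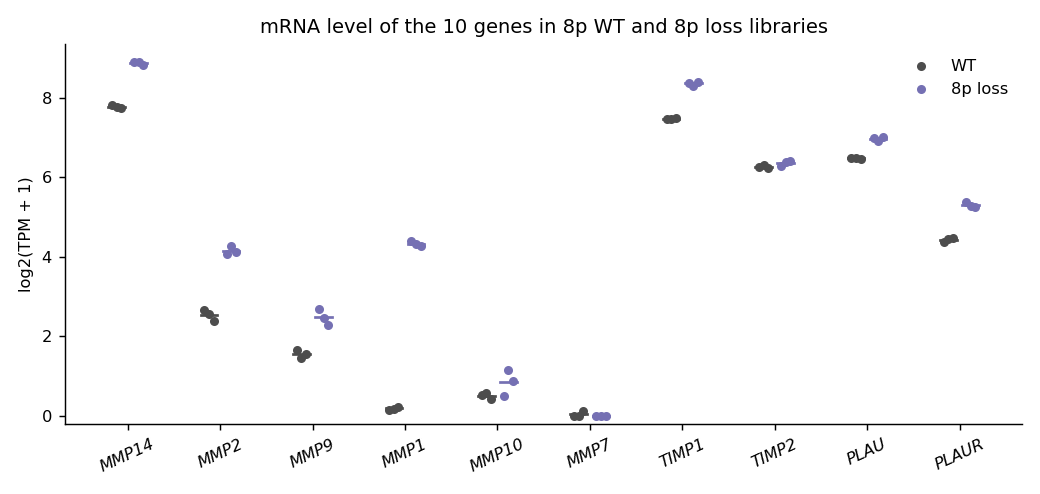
The vertical axis gives log2(TPM + 1) for each of the 10 genes in the 3 libraries of 8p WT (grey) and 8p loss (purple), 1 point per library, with a bar at each group's mean. MMP1 is the gene whose groups stand farthest apart, with 18.4 to 20.1 TPM in 8p loss and 0.113 to 0.170 TPM in WT.

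MMP1 measured 20.1, 19.0 and 18.4 TPM in the 8p loss libraries and 0.113, 0.136 and 0.170 TPM in WT. The log2 change, here and below for mRNA the difference in log2(TPM + 1), was 4.14 ± 0.07 (SE, adjusted p 1.13e-07). Only 3 of the 12302 genes tested rose further on this scale. The ratio of the means was 137, but it rests on WT values close to 0. MMP2, which degrades denatured and basement membrane collagen, measured 15.8, 18.3 and 16.4 TPM in 8p loss and 5.35, 4.91 and 4.26 TPM in WT, a log2 change of 1.61 ± 0.09 (adjusted p 7.23e-06). MMP9, the second gelatinase, measured 5.48, 4.54 and 3.85 TPM against 2.13, 1.75 and 1.94 TPM, a log2 change of 0.93 ± 0.12 (adjusted p 0.000442). In all of these the lowest 8p loss library stood above the highest WT library, a separation that 73.7% of all genes tested showed in one direction or the other. The 74 tested genes within 5 Mb of MMP9 had a median log2 change of -0.58, against -0.01 over all genes tested, so MMP9 was higher in a stretch of chromosome 20 whose genes were mostly lower.

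MMP14, the membrane protease that activates the MMP2 precursor at the cell surface, had the highest mean TPM of the 6 metalloproteases in every mRNA group. It measured 476, 480 and 455 TPM in 8p loss and 225, 219 and 213 TPM in WT, a log2 change of 1.10 ± 0.03 (adjusted p 6.56e-07). TIMP1, an inhibitor that also binds the MMP9 precursor, measured 331, 317 and 339 TPM in 8p loss and 176, 176 and 178 TPM in WT, a log2 change of 0.89 ± 0.03 (adjusted p 1.21e-06). TIMP2, which inhibits MMP2 and also bridges it to MMP14, behaved otherwise, at 76.5, 83.3 and 84.2 TPM against 75.2, 77.9 and 74.8 TPM, and its groups overlapped. Its log2 change of 0.10 ± 0.04 had an adjusted p of 0.0894, which became 0.0138 without 8p loss replicate 1. MMP14 and TIMP2 thus shifted relative to each other: the ratio of their TPM was 6.23, 5.77 and 5.40 in 8p loss and 2.99, 2.81 and 2.85 in WT.

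PLAU measured 126, 120 and 128 TPM in 8p loss and 88.1, 89.2 and 86.6 TPM in WT, a log2 change of 0.49 ± 0.03 (adjusted p 1.92e-05). PLAUR measured 40.5, 37.6 and 37.3 TPM against 19.9, 20.7 and 21.2 TPM, a log2 change of 0.87 ± 0.05 (adjusted p 6.42e-06). Receptor and enzyme both rose, the receptor by more, and the ratio of PLAU to PLAUR was 3.11, 3.17 and 3.42 in 8p loss and 4.44, 4.30 and 4.09 in WT. The remaining members stayed under a mean of 1 TPM and were not tested. MMP10, a stromelysin that cuts proteoglycans and laminin, measured 0.411, 1.21 and 0.852 TPM in 8p loss and 0.441, 0.477 and 0.341 TPM in WT, with overlapping groups. MMP7, matrilysin, a small epithelial metalloprotease, was listed at 0 in 5 of the 6 libraries and at 0.0861 TPM in a WT one.

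Epithelial markers moved the other way in the same libraries. Of the 8 markers, 7 were called lower, and their summed level ran from 4052 to 4187 TPM in 8p loss and from 11505 to 11975 TPM in WT. The 5 fibroblast markers summed to 9.10 to 9.40 TPM in 8p loss and 5.37 to 6.52 TPM in WT, where COL3A1 was at 0. They did not move together: of 2 tested, 1 was called higher and 1 lower. Ratios of mean TPM, 8p loss to WT, were 5.52 for DCN and 6.62 for LUM, but 0.649 for COL1A1 and 0.433 for PDGFRB. In both groups 3 of the 5 fibroblast markers had means under 1 TPM, so some of these ratios rest on values close to 0. The 4 leukocyte markers summed to 59.0 to 84.9 TPM in 8p loss, with PTPRC at 0, and to 37.2 to 59.7 TPM in WT. Only 1 leukocyte marker was tested, and it was called higher. The ratio of means was 1.4 for CD14, 1.62 for CD68 and 0.162 for ITGAM. Of the 4 leukocyte markers, 2 had means under 1 TPM in 8p loss and 3 in WT. The part of these markers in the protease changes was not tested, and in such bulk samples fewer cells of a type and less RNA per cell cannot be told apart.

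Around the 10 genes, the plasminogen system moved in both directions in 8p loss. SERPINE2, protease nexin, which inhibits urokinase and thrombin, measured 90.8, 101 and 92.3 TPM in 8p loss and 21.1, 18.9 and 20.9 TPM in WT, a log2 change of 2.17 ± 0.06 (adjusted p 4.29e-07). Of the 11 tested genes of the wider plasminogen system 5 were called higher and 5 lower, among them IGF2R, a receptor that binds plasminogen and PLAUR, at 1.29 and S100A10, a plasminogen receptor subunit, at -1.06. PLAT, the tissue activator, which lies on 8p near the centromere, had a log2 change of -0.49 ± 0.07 (adjusted p 0.000578).

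Among 7 other metalloproteases tested in 8p loss, 3 rose and 3 fell. MMP3, a stromelysin next to MMP1 on chromosome 11, measured 5.79, 4.41 and 4.96 TPM in 8p loss and 1.34, 1.06 and 0.862 TPM in WT (log2 change 1.54 ± 0.12, adjusted p 4.15e-05). MMP19 and MMP17 rose by 1.45 and 1.34, while MMP24, a membrane-type enzyme, had a log2 change of -1.49. Of 7 tested inhibitors and activators 3 rose and 1 fell. That 1 was TIMP3, the inhibitor that stays bound in the matrix, at 32.3, 34.1 and 34.3 TPM in 8p loss and 211, 206 and 221 TPM in WT (log2 change -2.63 ± 0.04, adjusted p 8.52e-08). RECK, a membrane-anchored inhibitor, rose by 0.96, TIMP4 by 0.63 and FURIN, a convertase that activates MMP14, by 0.32. The TIMP family therefore did not move as a block: TIMP1 and TIMP4 were higher, TIMP3 was lower and TIMP2 did not pass.

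Of 16 tested AP-1 and ETS factors 7 rose and 6 fell in 8p loss. The 4 with the greatest change were the epithelial ETS factors ELF3 (log2 change -2.44) and EHF (-2.16), the AP-1 subunit FOSB (-1.88) and the ETS factor ETV4 (1.10). The JUND call, higher, was lost with no filter on low values (adjusted p 0.0512) and without any 1 of 4 libraries (0.0724 to 0.0857). Of 10 genes that report ERK output 8 rose and 2 fell, with the greatest changes in SPRY4 (1.27), IER3 (0.71), DUSP6 (0.63) and DUSP5 (0.60). SPRY4 and the 2 DUSP phosphatases are feedback inhibitors of the pathway, and IER3 is an early target of ERK. The SPRY2 call, also higher, was lost with no filter on low values (adjusted p 0.0637) and without any 1 of 5 of the 6 libraries (0.0707 to 0.132). Of 14 matrix substrates 8 rose and 5 fell: fibronectin, FN1, rose by 2.26, SPARC had a log2 change of -1.20, and the laminin chain LAMA3 rose by 0.91.

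In 3p loss mRNA only TIMP2 and PLAUR passed the test, in opposite directions. TIMP2 stood at a mean of 94.2 TPM (SD 47.0) against 33.8 TPM (SD 10.9) in Chr3 WT, and PLAUR at 14.6 TPM (SD 1.01) against 23.0 TPM (SD 2.95). MMP14, TIMP1 and PLAU did not pass, and the other 5 genes were under a mean of 1 TPM in all groups and were not tested. Thus 1 of 5 tested genes was called higher and 1 lower, where 15.0% of the 11225 genes tested were called, 6.17% higher and 8.80% lower. The median log2 change was -0.14 over the 5 genes and 0.01 over all genes.

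**Figure D2:**
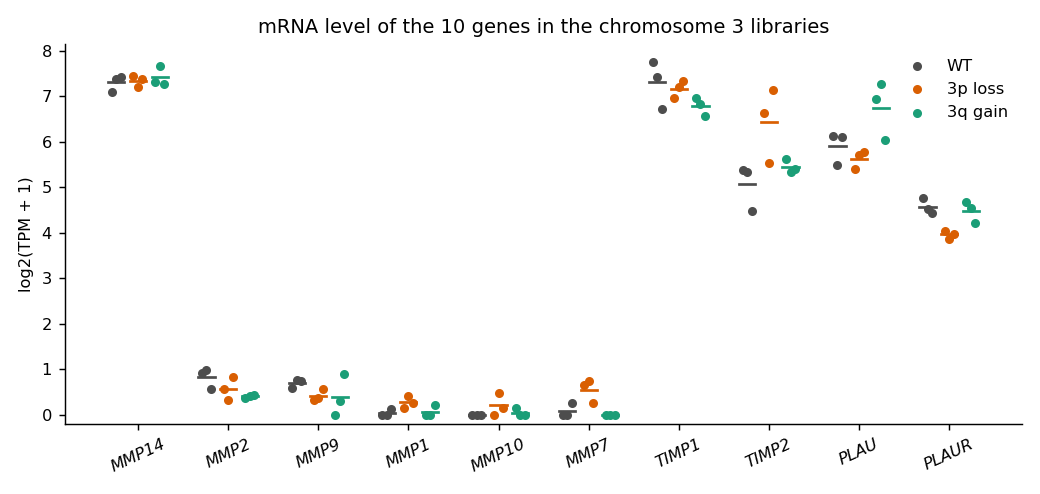
The vertical axis gives log2(TPM + 1) for each of the 10 genes in the 3 libraries of Chr3 WT (grey), 3p loss (orange) and 3q gain (green), 1 point per library, with a bar at each group's mean. MMP2, MMP9, MMP1, MMP10 and MMP7 lie below 1 TPM in every library, and the widest spread within a group is that of TIMP2 in 3p loss, at 45.6 to 139 TPM.

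TIMP2 measured 97.5, 45.6 and 139 TPM in 3p loss and 40.7, 39.5 and 21.3 TPM in WT. All 3 libraries were above the highest WT value, as in the 33.7% of tested genes whose groups did not overlap, but 3p loss replicate 2 exceeded it only slightly. The log2 change was 1.37 ± 0.37 (adjusted p 0.0378). The call was lost without 3p loss replicate 1 (adjusted p 0.111), 3p loss replicate 3 (0.105), WT replicate 2 (0.0536) or WT replicate 3 (0.119). It was also lost with the 2 groups fitted alone (0.0824) or with no filter on low values (0.0632). The 5 fibroblast markers summed to 8.06 to 124 TPM in 3p loss and to 5.16 to 6.28 TPM in WT, where LUM was at 0. The fibroblast proteoglycan DCN measured 75.8, 2.96 and 114 TPM in 3p loss replicates 1 to 3, low in the same library as TIMP2. The part of these markers in the TIMP2 difference was not tested.

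PLAUR measured 15.5, 13.5 and 14.8 TPM in 3p loss and 26.3, 22.1 and 20.6 TPM in WT, without overlap. The log2 change was -0.62 ± 0.16 (adjusted p 0.0292). This call too was narrow: leaving out 3p loss replicate 1, 2 or 3 gave adjusted p of 0.0611, 0.0784 and 0.0678, and leaving out WT replicate 1 or 2 gave 0.0786 and 0.053. Centring each library on its median also ended it (0.0654). That centring turned the split of all calls from 693 higher and 988 lower to 1118 higher and 850 lower.

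MMP14, PLAU and TIMP1 overlapped between the genotypes. MMP14 measured 173, 147 and 165 TPM in 3p loss and 136, 165 and 172 TPM in WT (log2 change 0.04 ± 0.14, adjusted p 0.884). TIMP1 measured 124, 145 and 161 TPM in 3p loss and 216, 170 and 105 TPM in WT, where the 3 WT libraries spread more widely than the groups differ (-0.14 ± 0.24, adjusted p 0.73). PLAU measured 41.1, 51.0 and 54.1 TPM against 68.8, 43.8 and 67.4 TPM, with overlapping groups (-0.28 ± 0.30, adjusted p 0.569). The gelatinases and the chromosome 11 proteases were hardly present: the highest value of any of them in any of the 9 libraries was 0.982 TPM, for MMP2 in WT.

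In 3p loss mRNA, of 5 other metalloproteases MMP17 alone was called, at -1.32 ± 0.33 (adjusted p 0.0261). Its call was lost without 3p loss replicate 1 (0.0869) or 3 (0.071) or WT replicate 1 (0.0707) or 2 (0.0609). None of 7 inhibitors and activators was called by limma, and 0 had an unadjusted p under 0.05. The most abundant were BSG, an inducer of metalloproteases, at -0.12 (adjusted p 0.416) and FURIN at 0.05 (0.902).

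Of 16 AP-1 and ETS factors 7 fell and none rose in 3p loss mRNA, led by ETV4 (-2.69), ETV5 (-2.32), ETS1 (-2.23) and FOSL1 (-1.83), the last an AP-1 subunit. Among the 7, the JUN call was lost with median centring (limma, adjusted p 0.0663), no filter (0.0599) or the 2 groups alone (0.0664). It was also lost without 3p loss replicate 1 (0.0579) or 3 (0.0621) or any 1 WT library (0.074 to 0.0872). Of 10 ERK output genes 7 fell and none rose, led by DUSP6 (-2.92), IER3 (-2.54), PHLDA1 (-2.52) and SPRY4 (-2.10). The SPRED2 call, 1 of these 7, was lost without 3p loss replicate 1 (limma, adjusted p 0.0516). Of 14 matrix substrates 6 fell and 2 rose. Among the falls, the COL4A2 call was lost with no filter or with the 2 groups alone (limma, adjusted p 0.0638 each). Leaving out 3p loss replicate 1 or 3 or any 1 WT library also ended it (0.0552 to 0.1). The LAMA3 call was lost without 3p loss replicate 1 (0.0551) or 3 (0.0539) or WT replicate 3 (0.0629). FN1 had a log2 change of -4.42 (adjusted p 0.0141, and 0.0536 without 3p loss replicate 1) and TNC, tenascin, of -3.20, whereas NID1, nidogen, rose by 2.75 and COL5A1 by 2.19. The COL5A1 call was lost without WT replicate 1 (0.0673) or 2 (0.0698). Its ratio of mean TPM, 3p loss to WT, was 18.3, far above the change on the log2(TPM + 1) scale. The COL5A1 change thus rests on WT values close to 0.

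**Figure D3:**
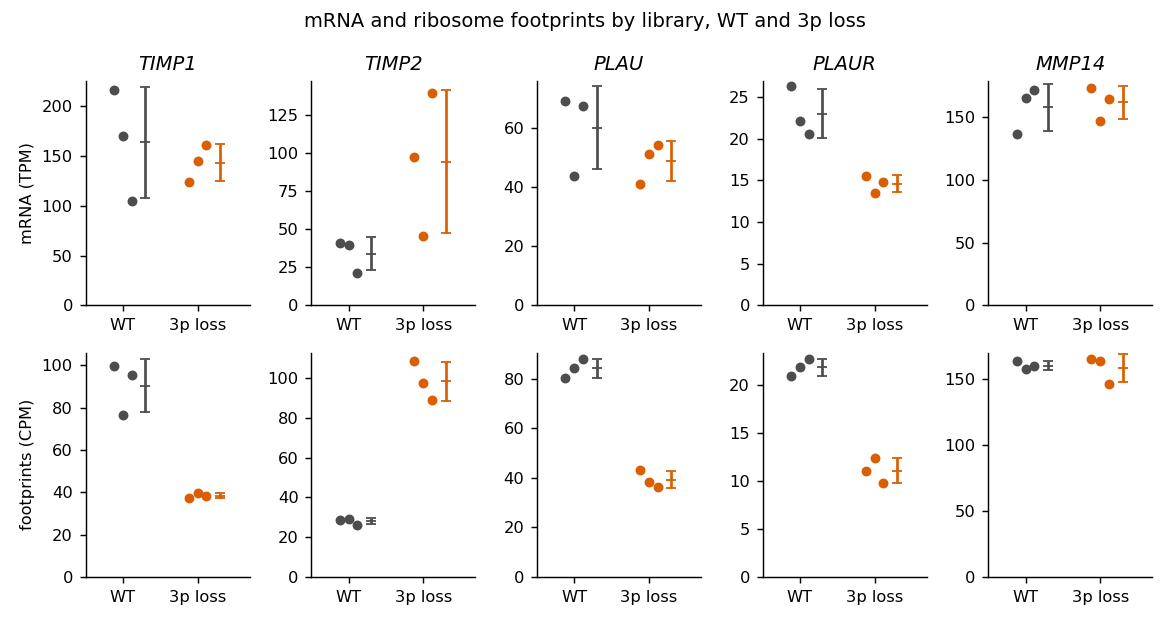
Each panel shows 1 gene by library in WT (grey) and 3p loss (orange), as mRNA in TPM (top row) and as footprints (bottom row) in CPM, counts scaled to library size, with the mean ± SD of 3 libraries beside the points and every axis starting at 0. The footprints of TIMP1 and PLAU separate the genotypes (38.5 against 90.4 CPM and 39.3 against 84.2 CPM) where their mRNA overlaps, and MMP14 is level in both.

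In ribosome footprints 3p loss cells had less MMP2, TIMP1, PLAU and PLAUR and more TIMP2, while MMP14 did not pass the test. Of the 6 genes with enough counts, MMP2 passed the filter only through the WT group and is left out of the following counts. Of the other 5 genes, 1 was called higher and 3 lower (edgeR quasi-likelihood test), where 69.3% of the 11425 genes tested were called, 35.1% higher and 34.2% lower. A change of at least 2-fold with a call was seen for TIMP1, TIMP2 and PLAU, 3 of these 5, against 29.3% of all genes. The median log2 change was -0.97 over the 5 genes and 0.02 over all genes.

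MMP2 had 2, 2 and 4 footprints in 3p loss and 27, 31 and 36 in WT, or 0.347 CPM (SD 0.0695) against 4.63 CPM (SD 1.10). The log2 change, here between TMM-scaled counts, was -3.03 ± 0.35 (adjusted p 8.17e-06), at counts low enough that its size is uncertain. MMP14 had 166, 164 and 147 CPM in 3p loss and 164, 158 and 160 CPM in WT (log2 change -0.01 ± 0.09, adjusted p 0.962). The other proteases were too sparse to pass the filter. MMP1 had 0 footprints in all 3p loss libraries and 5, 2 and 17 in WT, which is at least 8.57-fold lower, per summed library size, when 3 counts are allowed over the 3p loss group. WT replicate 3 held 17 of the 24 WT counts, and without it the bound was 4.06-fold. MMP9 had 2, 1 and 6 footprints against 6, 9 and 12 in libraries of unequal depth, 0.381 against 1.23 CPM over the summed libraries. MMP10 had 4 footprints in 3p loss and 1 in WT and MMP7 had 1 and 0, too few to compare. Counting error alone is covered by these limits.

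The 2 inhibitors went in opposite directions in footprints. TIMP1 measured 37.2, 39.9 and 38.4 CPM in 3p loss and 99.5, 76.3 and 95.4 CPM in WT, a log2 change of -1.22 ± 0.12 (adjusted p 2.66e-06). TIMP2 measured 109, 97.5 and 89.1 CPM in 3p loss and 28.8, 29.1 and 26.3 CPM in WT, a log2 change of 1.81 ± 0.12 (adjusted p 8.25e-08). All 3 libraries of each group lay apart from the other group for both genes, as for 73.0% of all genes tested. The ratio of TIMP1 to TIMP2 footprints was 0.342, 0.409 and 0.431 in 3p loss and 3.45, 2.62 and 3.63 in WT, and that of MMP14 to TIMP2 was 1.52, 1.68 and 1.65 against 5.69, 5.41 and 6.09. Footprint counts are not divided by length, so these ratios compare groups and not the genes with each other. The 5 fibroblast markers summed to 62.6 to 72.5 CPM in 3p loss and 22.4 to 24.4 CPM in WT, with COL3A1 at 0 in both, and DCN measured 49.0, 48.5 and 39.4 CPM against 14.5, 11.6 and 12.1 CPM. Their part in the TIMP2 difference was not tested.

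Enzyme and receptor of the urokinase system fell alike. PLAU measured 43.2, 38.3 and 36.4 CPM in 3p loss and 80.4, 84.4 and 88.0 CPM in WT (log2 change -1.09 ± 0.11, adjusted p 3.36e-06). PLAUR measured 11.0, 12.4 and 9.80 CPM against 20.9, 21.8 and 22.7 CPM (-0.97 ± 0.16, adjusted p 0.000145). The ratio of the pair was 3.92, 3.08 and 3.72 in 3p loss and 3.84, 3.86 and 3.87 in WT, so its groups overlapped.

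SERPINE2 had fewer footprints in 3p loss, at 13.3, 8.93 and 11.7 CPM against 97.0, 104 and 90.1 CPM in WT (log2 change -3.05 ± 0.15, adjusted p 5.69e-09). Of 9 genes tested in the wider plasminogen system 4 fell and 3 rose, the falls including PLAT (-1.34) and SERPINB2 (-0.97), a further urokinase inhibitor. Of 3 other metalloproteases MMP17 (-2.90) and MMP15 (-1.30) fell. The ratio of mean CPM of MMP17, WT to 3p loss, was 11.5, above the fitted change, so its size rests on few 3p loss footprints. Of 8 inhibitors and activators 4 fell and 2 rose: TIMP3 rose by 1.95 ± 0.13 (adjusted p 6.04e-08), from 35.8, 35.5 and 28.3 CPM in WT to 130, 136 and 117 CPM, while TIMP4, which lies on 3p, changed by -1.82, FURIN by -1.77 and PCSK6, another convertase, by -1.72.

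Of 16 AP-1 and ETS factors 7 rose and 6 fell in footprints, the furthest being ELF3 (4.41), ELK3 (-3.19), ETV4 (-2.79) and FOSL1 (-2.37). Among the 7 that rose, the JUNB call was lost under DESeq2 (adjusted p 0.0624), with no filter (0.0792), with replicates 1 and 2 summed (0.23) and without any 1 of 5 libraries (0.0586 to 0.196). All 9 ERK output genes tested fell, led by SPRY4 (-3.23), PHLDA1 (-2.78), DUSP4 (-2.60) and DUSP6 (-2.58). Of these 9 calls, that of DUSP5 was lost without 3p loss replicate 1 (adjusted p 0.0807) or 3 (0.0681) or WT replicate 2 (0.0693) or 3 (0.0931) and with replicates 1 and 2 summed (0.062), and that of SPRY2 without WT replicate 3 (0.0585). Of 14 matrix substrates 10 fell and 1 rose, with FN1 at -4.53, TNC at -3.18 and the collagen chain COL4A2 at -2.74.

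**Figure D4:**
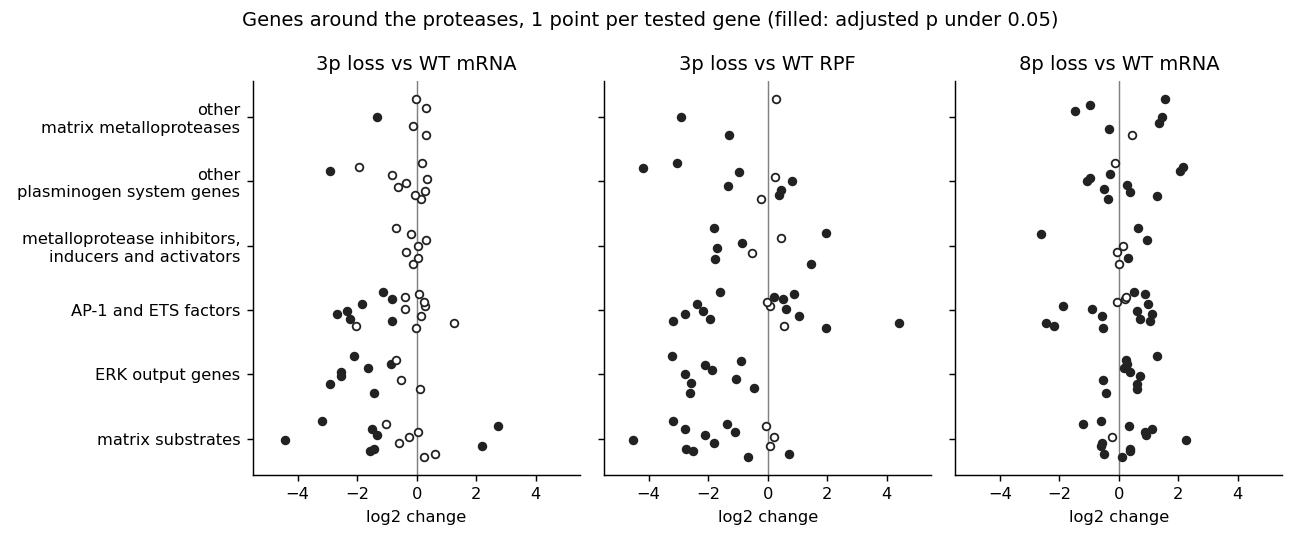
Each point is 1 tested gene, placed by its log2 change in 3p loss mRNA, 3p loss footprints (RPF) and 8p loss mRNA against the WT of the same table, in rows for 6 gene lists, and filled where the adjusted p is under 0.05. ERK output genes lie left of 0 in 3p loss footprints, all 9 of them filled, and mostly right of 0 in 8p loss, with 8 of 10 called higher.

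Translational efficiency, the change in footprints beyond the change in mRNA, fell for TIMP1 and PLAU, the PLAU call being lost when footprint replicates 1 and 2 were summed. Of the 5 members measured in both assays 2 were called lower and none higher, where 35.9% of the 10107 genes tested were called, 17.7% higher and 18.2% lower (limma interaction of assay and genotype). The log2 difference was -1.06 ± 0.29 for TIMP1 (adjusted p 0.0132) and -0.81 ± 0.24 for PLAU (adjusted p 0.0183), and both calls held without any 1 library and under the other alternatives. With footprint replicates 1 and 2 summed to 1 library, an alternative chosen after seeing the data, the adjusted p was 0.0488 for TIMP1 and 0.0668 for PLAU, and 2067 genes were called in place of 3629. PLAUR differed by -0.31 ± 0.21 (adjusted p 0.27), MMP14 by -0.06 ± 0.16 (0.807) and TIMP2 by 0.40 ± 0.45 (0.511), none of which passed. The mRNA and footprint libraries were normalised separately, and their WT cells carry different labels, Chr3 WT and 3p WT.

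The gene lists showed other differences in efficiency, and of the 32 list genes called 12 lost the call with footprint replicates 1 and 2 summed (adjusted p 0.0539 to 0.124), PCSK6, MMP15, ELF3, COL5A1 and COL4A2 among them. Of 7 inhibitors and activators TIMP3 (2.10) and BSG (1.52) rose and 3 fell, FURIN (-1.88) and PCSK6 (-1.35) the furthest. PCSK6 had an adjusted p of 0.0189, and of 0.0561 without footprint library 1 of 3p loss. Of 9 plasminogen system genes only PLGRKT, a plasminogen receptor, was called, at 1.14. Of 3 other metalloproteases only MMP15 was called, at -1.14, and its call was lost without any of 6 libraries: 3p loss mRNA replicate 3 (0.0789), WT mRNA replicates 2 (0.0701) and 3 (0.0684), 3p loss footprint replicates 1 (0.0714) and 2 (0.0895) and WT footprint replicate 3 (0.0907). Of 16 AP-1 and ETS factors 7 rose and 1 fell, with ELF3 at 2.77, EHF at 2.46, ELK3 at -2.27 and ATF3 at 1.95. The ELF3 call was lost without 3p loss mRNA replicate 3 (0.06), 3p loss footprint replicate 1 (0.0571) or 2 (0.0617) or WT footprint replicate 1 (0.055) or 3 (0.0581). Of 9 ERK output genes 2 fell, SPRED2 (-1.23) and DUSP4 (-1.14). Of 14 matrix substrates 6 fell and none rose, among them NID1 (-2.83), COL5A1 (-2.10, adjusted p 0.0548 without WT footprint replicate 3) and COL4A2 (-1.32, a call lost without any 1 of 9 libraries). The COL5A1 value rests on WT mRNA close to 0.

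In 3q gain mRNA none of the 5 tested members was called (limma), PLAU alone had an unadjusted p under 0.05, and 5.27% of the 11225 genes tested were called, 2.60% higher and 2.67% lower. PLAU had its highest mean of the 3 chromosome 3 groups here, at 122, 154 and 64.3 TPM, but 3q gain replicate 3 fell within the range of WT and the log2 change of 0.85 ± 0.30 had an adjusted p of 0.13. TIMP1 measured 123, 113 and 93.5 TPM (-0.52 ± 0.24, adjusted p 0.224) and TIMP2 48.0, 39.2 and 41.5 TPM (0.38 ± 0.37, adjusted p 0.579), both overlapping WT. In all 5 genes the groups overlapped, while 30.0% of all genes tested separated. MMP14 measured 159, 202 and 152 TPM (0.11 ± 0.14, adjusted p 0.677) and PLAUR 24.4, 22.4 and 17.7 TPM (-0.10 ± 0.16, adjusted p 0.754).

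In the wider plasminogen system 3 of 10 tested genes fell in 3q gain and none rose, SERPINB2 (-3.16 ± 0.66, adjusted p 0.0278) and SERPINE2 (-2.87 ± 0.59, adjusted p 0.0271) among them. Without 3q gain replicate 2 or 3 or WT replicate 2 or 3 the adjusted p of SERPINE2 was 0.0692, 0.0913, 0.0778 and 0.0726, and the same 4 omissions ended the SERPINB2 call (0.0769, 0.114, 0.0816 and 0.086), which was also lost without 3q gain replicate 1 (0.0581). None of 5 other metalloproteases and none of 7 inhibitors and activators was called (limma, with an unadjusted p under 0.05 for 2 of the former, MMP17 and MMP28, and 0 of the latter). The most abundant of these were MMP28, an epithelial metalloprotease, at -0.96 (adjusted p 0.109), MMP15 at 0.12 (0.853), BSG at -0.06 (0.757) and FURIN at -0.08 (0.847).

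Of 16 AP-1 and ETS factors 3 fell in 3q gain, EHF (-2.81), FOSL1 (-1.71) and ETS1 (-1.62). Of 10 ERK output genes 4 fell, PHLDA1 (-1.87), DUSP6 (-1.65), DUSP4 (-1.43) and SPRY4 (-1.34), and of 14 matrix substrates 3 fell, FN1 (-4.09) and TNC (-2.53) among them. None of these lists held a gene called higher. Over all list genes called in 3q gain, 13 of 15 lost the call without at least 1 of the libraries, at adjusted p of 0.0537 to 0.165. DUSP4 and TNC were the exceptions, with adjusted p of 0.00646 and 0.00846 when all libraries were used.

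Set directly against 3q gain, 3p loss showed no call among the 5 members (limma), 3 of which, PLAU, PLAUR and TIMP2, had an unadjusted p under 0.05, and 3.93% of the 11225 genes tested were called, 0.873% higher and 3.06% lower. PLAU differed most, at 41.1 to 54.1 TPM in 3p loss and 64.3 to 154 TPM in 3q gain without overlap (log2 difference -1.12 ± 0.30, adjusted p 0.0783), and passed without 3q gain replicate 3 (adjusted p 0.0207). PLAUR was also lower in each 3p loss library than in any 3q gain library (-0.52 ± 0.16, adjusted p 0.121), and TIMP1 was higher in each (0.38 ± 0.24, adjusted p 0.524). Separation of this kind was seen in 22.4% of all genes tested. TIMP2 differed by 0.98 ± 0.37 (adjusted p 0.231), which passed without 3p loss replicate 2 (0.0301), and MMP14 by -0.07 ± 0.14 (0.891). Among the other metalloproteases, the plasminogen system and the inhibitors none was called (limma), with an unadjusted p under 0.05 for 1 of 5, 3 of 10 and 0 of 7 genes. The most abundant of these were MMP28 at 0.93 (adjusted p 0.167), MMP15 at -0.25 (0.82), ANXA2 and S100A10, which form a plasminogen receptor, at 0.26 each (0.274 and 0.481), BSG at -0.06 (0.852) and FURIN at 0.12 (0.868). Of the remaining lists, ETV4 (-1.75, adjusted p 0.0419), ETV5 (-1.48, 0.0448) and IER3 (-1.35, 0.0356) were lower in 3p loss, and NID1 was higher (3.90, 0.00168). Genes of these lists were not placed by arm, and the median gene of 3q was at -0.49 here and that of 3p at -0.84. With the replicate number as a block, which pairs these 2 groups, the ETV4 call was lost (adjusted p 0.0662). Leaving out 1 library ended the ETV4 call for 4 libraries (0.114 to 0.17), the ETV5 call for 5 (0.0637 to 0.177) and the IER3 call for 4 (0.0869 to 0.128).

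**Figure D5:**
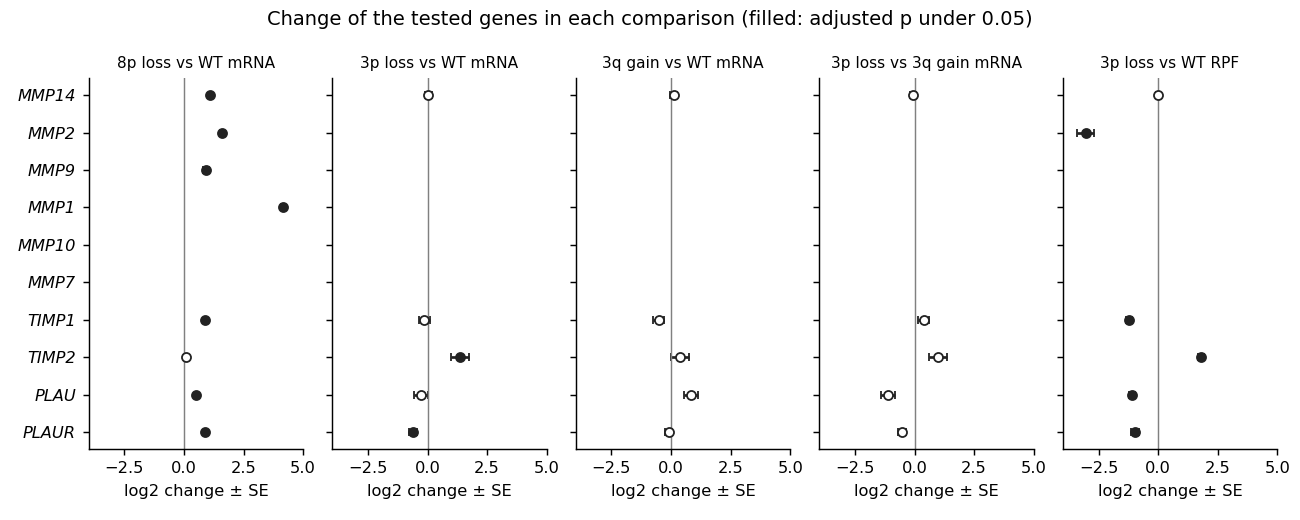
Points give the log2 change ± SE of each tested gene in 5 comparisons (mRNA on the log2(TPM + 1) scale, footprints as TMM-scaled counts), filled where the adjusted p is under 0.05, and genes with no point were not tested. TIMP1, PLAU and PLAUR are higher in 8p loss and lower in 3p loss footprints, and MMP2 is at 1.61 and -3.03. In 3p loss mRNA, TIMP1 and PLAU were not called and MMP2 was not tested.

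Read across the tables, each with its own WT, MMP2, TIMP1, PLAU and PLAUR were called higher in 8p loss mRNA and lower in 3p loss footprints, TIMP2 was called in 3p loss mRNA and footprints and not in 8p loss, and MMP14 was called in 8p loss and in no chromosome 3 comparison. The difference between these effects was not tested. In 3p loss mRNA, PLAUR was also called lower, TIMP1 and PLAU were not called, and MMP2 was not tested. MMP2 passed the footprint filter only through the WT group. Within the chromosome 3 mRNA, the profile of TIMP2 over the 9 libraries was nearest to those of PRKAR2B, THRA and TGFBR3 (root mean square distance 0.288, 0.337 and 0.344 on the centred log2 scale). That of PLAU was nearest to GLT8D2, CEBPD and MEGF6 (0.249, 0.275 and 0.290), and that of PLAUR to PCCB, BID and MIF (0.109, 0.124 and 0.126), among 11225 genes. The 9 libraries share their genotypes and preparation, and the distances are descriptions.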

How the data were processed

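Per the labels, polyA mRNA was sequenced for the chromosome 3 set with a directional kit at 100 bp, chromosome 8 libraries were made at a core facility, and footprints were isolated from cycloheximide-treated cells with RiboLace Pro. The build was GRCh38 per the submitters' processing notes, the aligner, counter and annotation being not given in the sources used here. Deposited mRNA values carry no unit name and were taken as TPM made by the authors, since columns sum to 861114 to 916783 over gene names, though FPKM could not be told from them. The deposited footprint values are whole read counts, and rows named by transcript (0.432% to 0.568% of counts) were left out.

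TPM were tested by limma 3.58.1 under R 4.3.3 (log2(TPM + 1), trend in the variance, genes averaging 1 TPM or more), with the 9 chromosome 3 libraries in one fit and the 6 chromosome 8 libraries in another. Log2 changes on that scale understate the change of low genes. Counts were tested with edgeR 4.0.16 (quasi-likelihood F test, TMM, filterByExpr, prior count 2), and DESeq2 1.42.0 was an alternative. Translational efficiency was the assay by genotype interaction in limma on log2(TPM + 1) and log2(CPM + 1), as the tables differ in unit. P-values were adjusted by Benjamini-Hochberg over all genes tested, with 0.05 as the threshold, and the fits were tested on simulated data. Replicates are labelled biological with no culture named, so p-values measure the spread between these libraries. Replicate numbers paired 3p loss and 3q gain mRNA by correlated deviations (0.120 to 0.158, each library best with its own number), and no other groups. From each gene list up to 4 called genes of largest change were named, or the 2 of highest level where none was called, except for a few results not reported here. The members and the gene lists (other metalloproteases, plasminogen system, inhibitors and activators, ADAM proteases, membrane serine proteases and cathepsins, AP-1 and ETS factors, ERK output, matrix substrates, cell type markers) were chosen with earlier results of these data known. Alternatives were median centring, another filter or pseudocount, the replicate block, only the groups compared, summing footprint replicates 1 and 2 (for efficiency added after seeing the data), and leaving out each library.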

Additional observations from a re-analysis of the deposited data

How the results depend on the processing

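All 7 members called in 8p loss kept their calls under every alternative in which they were tested (at a mean of at least 10 TPM, MMP1 and MMP9 fell under the filter), as did the 5 called in footprints, DESeq2 and the summed replicates 1 and 2 included. The 7 include MMP1 and the 5 include MMP2, each of which passed the filter only through the group where it was high. Of all genes tested, 69.1% were called in 8p loss and 69.3% in footprints. In translational efficiency TIMP1 kept its call under every alternative and PLAU under all but 1: with footprint replicates 1 and 2 summed, an alternative chosen after seeing the data, 1 member was called instead of 2 and 2067 genes instead of 3629, from 2 libraries a group. With no filter on low values 4 members were called lower in efficiency instead of 2, with MMP2 (-1.80 ± 0.27, adjusted p 0.000741) and MMP1 (-1.18 ± 0.33, adjusted p 0.0172) joining near the detection limit of their mRNA, and in footprints MMP1 (-2.38 ± 0.57, adjusted p 0.00116) and MMP9 (-1.36 ± 0.52, adjusted p 0.0297) joined. The 3p loss mRNA calls were the least stable: 1 member instead of 2 was called with median centring (TIMP2), and 1 with no filter, with the 2 groups alone or with the replicate block (PLAUR each time), and 0 to 1 when a library was left out. Genes called over the whole table ran from 990 to 1458 when a library was left out, against 1681, 990 being the count that omits 3p loss replicate 1 and 1062 that which omits WT replicate 3. In 3q gain they ran from 110 to 634, against 592 (149 and 110 without 3q gain replicates 2 and 3, 273 and 294 without WT replicates 2 and 3). In 3p loss against 3q gain they ran from 187 to 462, against 441 (191 without 3p loss replicate 1, and 226, 187 and 235 without 3q gain replicates 1, 2 and 3), with 0 to 1 members called. Directions turned only in genes that were not called, when a library was left out: MMP14 ranged from -0.063 to 0.104 in 3p loss mRNA, -0.013 to 0.189 in 3q gain, -0.151 to 0.051 in 3p loss against 3q gain, -0.033 to 0.054 in footprints and -0.122 to 0.045 in efficiency, TIMP1 from -0.426 to 0.091 in 3p loss mRNA, PLAUR from -0.193 to 0.030 in 3q gain, and TIMP2 from -0.041 to 0.754 in efficiency. The cause was not tested. Of the list genes called, 9 of 27 in 3p loss mRNA, 5 of 64 in footprints, 10 of 32 in efficiency and 6 of 76 in 8p loss lost the call without at least 1 library.

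With the replicate number as a block, members called were 1 in 3p loss mRNA (the TIMP2 adjusted p was 0.0577), 0 in 3q gain and in 3p loss against 3q gain, 5 in footprints, 2 in efficiency and 7 in 8p loss, and no other member's call changed. Over all genes the block gave 1509, 451, 351, 7980, 3310 and 8456 calls in the same order. Same-numbered libraries deviated together by -0.173 to -0.045 between 3p loss and WT mRNA, -0.066 to 0.083 between WT and 3q gain, 0.034 to 0.134 in footprints and -0.009 to 0.217 in chromosome 8, and 0, 2, 4 and 3 of 6 libraries in these correlated best with their own number. Depth limits MMP1, MMP7, MMP9 and MMP10 in the footprints, and the depth behind the TPM is unknown.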

Other observations

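Other proteases moved too. In 8p loss 6 of 9 tested ADAM and ADAMTS genes rose and 3 fell, led by ADAM19 (1.81), ADAM8 (1.56), ADAMTS6 (1.44) and ADAM9 (-0.99), and in 3p loss footprints 5 of 8 fell and none rose, with ADAM19 at -5.33, ADAM12 at -4.80, ADAM8 at -3.62 and ADAMTS6 at -1.65. Ratios of mean CPM, WT to 3p loss, were 54.1 for ADAM19 and 80.5 for ADAM12, above the changes fitted with a prior count. Few 3p loss footprints stand behind these 2 values, and their size is uncertain. In translational efficiency ADAM8 (-2.37) and ADAM15 (-0.68) fell and ADAM17 (0.79) rose, the ADAM15 call being lost without any 1 of 5 libraries (adjusted p 0.0527 to 0.0831) and with footprint replicates 1 and 2 summed (0.108). In mRNA, ADAM17 fell in 3p loss (-0.57, adjusted p 0.0276, lost without any 1 of 4 libraries at 0.0569 to 0.0808) and ADAM15 in 3q gain (-0.59, adjusted p 0.0314, lost without any 1 of 5 libraries at 0.0579 to 0.129), 1 of 5 tested genes each, and 0 of 5 were called between 3p loss and 3q gain (limma, with 0 at an unadjusted p under 0.05, ADAM15 at 0.24 and ADAM9 at 0.22).

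Among membrane serine proteases, cathepsins and their inhibitors, 8 of 13 fell and 3 rose in 8p loss, with CTSV at -1.79, the epithelial proteases PRSS8 and ST14 at -1.39 and -1.26 and CTSZ at 1.19. In 3p loss footprints 10 of 12 rose and 1 fell, led by CTSD (1.72), PRSS8 (1.49), CSTA (1.41) and CTSV (1.34). Of the 10, the CTSB and CSTB calls were each lost without any 1 of 4 libraries (adjusted p 0.0526 to 0.131), and the CSTB call also under DESeq2 (0.0688), with no filter (0.0557) and with replicates 1 and 2 summed (0.132). In efficiency 6 rose and none fell, led by CSTA (1.84), PRSS8 (1.45), CTSB (1.21, adjusted p 0.0516 without 3p loss footprint replicate 2) and CTSV (0.92), and with footprint replicates 1 and 2 summed CTSB (0.0602) and CTSV (0.0566) lost the call. In 3p loss mRNA 1 of 13 tested genes rose and 1 fell. CTSD rose in 3p loss (1.26, adjusted p 0.00471) and in 3q gain (0.90, adjusted p 0.0445, lost without any 1 of 4 libraries at 0.0844 to 0.155). CST6 fell in 3p loss (-2.02, adjusted p 0.0361, lost without any 1 of 4 libraries at 0.0856 to 0.0988), and CSTA was lower in 3p loss than in 3q gain (-0.79, adjusted p 0.0363, lost without any 1 of 5 libraries at 0.0623 to 0.126). Between 3p loss and 3q gain the median gene of 3q was at -0.49 and that of 3p at -0.84, and CSTA was not placed by arm.

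MMP28 measured 12.4, 30.6 and 22.0 TPM in Chr3 WT and 19.0, 16.3 and 25.4 TPM in 3p loss and had 0 footprints in all 6 footprint libraries. The cause was not tested.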
